A study of Bos taurus with 14 samples.

Results

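Interferon-induced antiviral effector genes encode the proteins that a cell makes after it has sensed interferon and that act on viral RNA, viral proteins or viral budding. The genes were chosen by name from a list of 10, namely ISG15, ISG20, MX1, MX2, IFI6, IFI44, RSAD2, BST2, OAS2 and EIF2AK2. Of these 10 genes, 6 were matched to a probe of the bovine array (ISG15, EIF2AK2, OAS2, MX1, MX2 and RSAD2), with 1 probe and 1 spot each among 15011 distinct probes, whose names cover 6739 genes. ISG20, IFI6, IFI44 and BST2 had no matching probe under the rule and were not analysed here.

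The study gave Holstein heifers or steers β-cryptoxanthin, a provitamin A carotenoid of citrus fruit, by mouth at 0.2 mg/kg body weight on day 0. Peripheral blood neutrophils of 4 animals (numbers 25, 26, 32 and 34) and liver of 3 other animals (numbers 58, 61 and 66) were sampled on day 7 and on day 0, and each sample was put on its own single-colour array. All 14 samples came from treated animals, so an effect of the carotenoid and any other effect of the 7 days cannot be told apart. In both tissues the day 7 arrays lay in row 2 of the slide and the day 0 arrays in row 1, so day and slide position cannot be told apart either. All neutrophil arrays lay on one slide and all liver arrays on another, so tissue and slide cannot be told apart. The labels do not give the age or sex of each animal.

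Type I interferons bind the receptor IFNAR1 and IFNAR2, and the kinases beneath it activate transcription factors that switch on a large set of genes in the nucleus. The effectors studied here are among the most strongly induced of them in most mammalian cells. Blood leukocytes respond readily to interferon, and in cattle the transcripts of ISG15, MX1, MX2 and OAS genes in leukocytes are used as a readout of exposure to it.

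Each level below is the log2 of the spot's processed signal minus the 75th percentile of its array, so 0 is the 75th percentile and 1 unit is a doubling. Probes bind with different strength, so the level of one gene was never set against that of another. The 6 probes, each 60 bases long, are the identity of what was measured. Those of 5 genes are given as deposited, whole for OAS2 and by their first 30 bases for the others, because every value that follows rests on a single probe.
OAS2: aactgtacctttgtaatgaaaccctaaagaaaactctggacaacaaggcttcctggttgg
EIF2AK2: tacttcaaaaagtatcctgcttctgataat
MX1: ccccatgttttaggaacatgagtgccatac
MX2: cttggctggtccttttcttataaattcagt
RSAD2: tgtctactgtggctcctgtgcttccgtttt
The longest run of bases that a member's probe shared with any other probe of the array was 11 bases for MX1, 12 bases for ISG15, EIF2AK2 and RSAD2, 14 bases for MX2 and 15 bases for OAS2. Among themselves the 6 probes shared at most 8 bases, so they are unlike in sequence. The probes lay in spot rows 39 (ISG15), 67 (RSAD2), 71 (OAS2), 96 (EIF2AK2), 141 (MX1) and 158 (MX2) of 192.

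The arrays differed in quality within the neutrophils. Of the neutrophil spots, 57.1% to 69.0% per day 7 array stood well above background, against 63.5% to 71.6% per day 0 array. The liver arrays gave 62.7% to 75.1% for day 7 and 74.7% to 76.7% for day 0. On day 7 the array of animal 34 gave the lowest median signal (48.2, with 18 outlier spots), and animal 32 came next (100.2, with 1 outlier spot). The labelled tissues were set against their markers on day 0, by limma at an adjusted p under 0.05. Of 13 neutrophil marker genes, 12 were higher in neutrophils than in liver, as were 43.4% of all probes, and LTF was lower (-2.10). All 13 hepatocyte marker genes were lower in neutrophils, as were 4567 of 11494 probes. Only 3 of these 13 were well above background on every day 0 neutrophil array, so most entered the test through liver alone. In liver, all 9 skeletal muscle markers tested were higher on day 7 than on day 0 by the same test, as were 292 of 10930 probes. On every day 0 liver array only 1 of the 9 was well above background, so most entered the test through day 7 alone. Their median log2 change of 6.35 thus rests on day 0 spots near background. The part of this change in the liver values below was not tested.

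In neutrophils the question was whether the effector genes changed in the 7 days after dosing. All 6 genes were much higher on day 7 than on day 0 in 1 animal, number 32, and none of them was over 2-fold higher on day 7 in any of the other 3. The log2 change in animal 32 ran from 2.58 for ISG15 to 5.36 for RSAD2, with a median of 3.35. The median change of the same 6 genes was -0.41 in animal 25, -0.62 in animal 26 and -1.0 in animal 34. Averaged over the 4 animals no gene passed the test. In whole-cell RNA, fewer cells of a type and less RNA per cell cannot be told apart, nor can more cells and more RNA per cell.

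**Figure D1:**
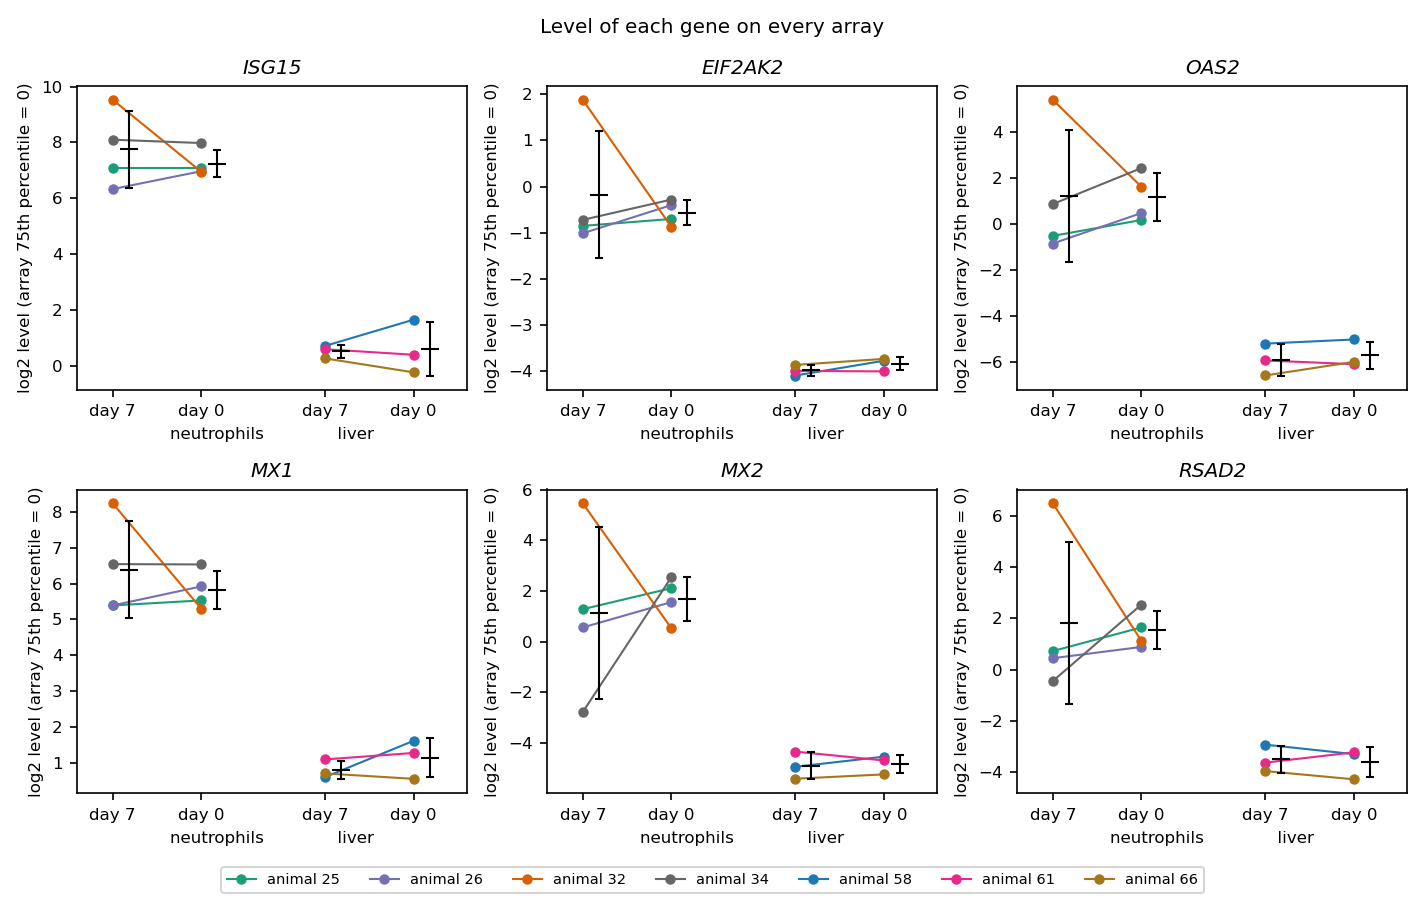
Log2 level of the 6 genes on every array, with 0 at the 75th percentile of the array. Each line joins the day 7 and day 0 sample of 1 animal, and the black marks give the mean with its SD (4 neutrophil animals, 3 liver animals). The orange line of animal 32 has the highest day 7 value in all 6 panels, and all neutrophil points lie above all liver points.

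ISG15 is a ubiquitin-like protein that is coupled to other proteins after interferon and is also secreted. Its level on day 7 was 7.08 in animal 25, 6.33 in animal 26, 9.53 in animal 32 and 8.10 in animal 34. On day 0 it was 7.08, 6.97, 6.95 and 7.98 in the same order of animals. Animals 25 and 34 hardly differed between the days, animal 26 was lower on day 7 (change -0.64), and animal 32 was 5.99-fold higher. The mean change was 0.52 ± 0.52 (SE, n = 4; limma adjusted p = 0.644), with a 95% interval of -0.70 to 1.73.

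EIF2AK2 encodes PKR, a kinase that is switched on by double-stranded RNA and then halts translation through eIF2α. Its level on day 7 was -0.85, -1.01, 1.88 and -0.72 in animals 25, 26, 32 and 34, against -0.70, -0.40, -0.87 and -0.28 on day 0. The 4 day 0 values lay within 0.59 of each other, and on day 7 only animal 32 lay outside that band on the high side. Its level was 6.70-fold higher on day 7 in animal 32. The other 3 animals were lower on day 7, with changes of -0.14, -0.60 and -0.44 (limma mean change 0.39 ± 0.56, SE, n = 4; adjusted p = 0.76).

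OAS2 is an oligoadenylate synthetase that makes the 2'-5' linked messenger that activates RNase L when it meets double-stranded RNA. On day 7 its level was -0.52, -0.85, 5.38 and 0.86 in animals 25, 26, 32 and 34. On day 0 the levels were 0.17, 0.47, 1.61 and 2.42. Animals 32 and 34 already stood above the other 2 on day 0, and the days then parted them, since animal 32 was 13.7-fold higher on day 7 and animal 34 was lower by a log2 change of -1.56. The fitted mean change was 0.05 ± 0.85 (SE, n = 4; limma adjusted p = 0.981).

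MX1 and MX2 are dynamin-like GTPases that form rings around the nucleocapsids of incoming viruses. MX1 had levels of 5.39, 5.39, 8.23 and 6.54 on day 7 in animals 25, 26, 32 and 34, and 5.53, 5.92, 5.30 and 6.53 on day 0. Animal 32 had the lowest MX1 level of the 4 animals on day 0 and the highest on day 7, a 7.60-fold difference. The mean change of MX1 was 0.57 ± 0.57 (SE, n = 4; limma adjusted p = 0.645).

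MX2 had the widest spread of the 6 genes between animals on day 7. Its level was 1.28, 0.56, 5.46 and -2.78 on day 7 in animals 25, 26, 32 and 34, against 2.11, 1.56, 0.53 and 2.54 on day 0. The highest and the lowest animal changed places between the days. Animal 32, lowest on day 0, was 30.5-fold higher on day 7, and animal 34, highest on day 0, had a change of -5.32, with its day 7 spot still well above background. In processed signal, the MX2 spot of animal 34 read 82.6 on day 7 and 6460 on day 0. The mean change of MX2 was -0.55 ± 1.39 (SE, n = 4; limma adjusted p = 0.869), and the 95% interval ran from -3.83 to 2.73.

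RSAD2 encodes viperin, a radical SAM enzyme that turns CTP into a chain-terminating nucleotide analog. Its level on day 7 was 0.73, 0.45, 6.49 and -0.44 in animals 25, 26, 32 and 34, and its level on day 0 was 1.65, 0.89, 1.13 and 2.54. The processed signal of the spot in animal 32 was 68300 on day 7 and 2620 on day 0, a 40.9-fold difference once each array was set to its 75th percentile. Animals 25, 26 and 34 were lower on day 7, with changes of -0.91, -0.43 and -2.98. The mean change was 0.26 ± 1.19 (SE, n = 4; limma adjusted p = 0.929).

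**Figure D2:**
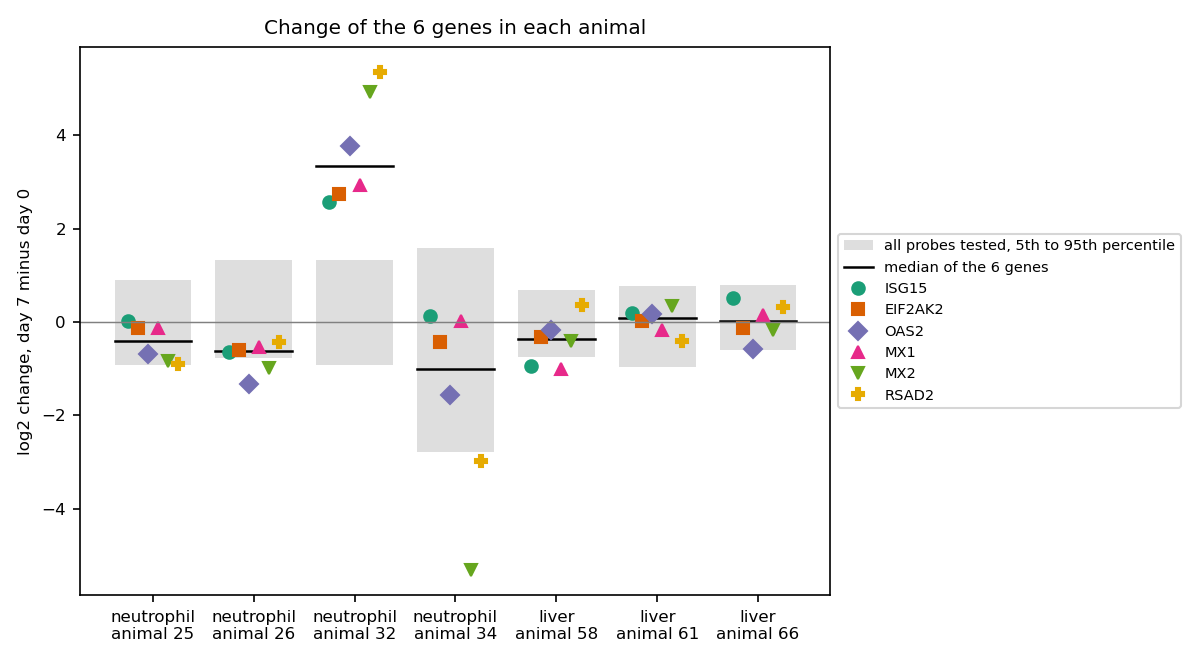
Log2 change, day 7 minus day 0, of the 6 genes in each of the 7 animals. Symbols are genes, the black line is their median and the grey band holds the 5th to 95th percentile of all probes tested in that tissue. In animal 32 the 6 genes lie between 2.58 and 5.36, above a band that ends at 1.32.

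Counted over the animals, 6 of 6 genes were over 2-fold higher on day 7 in animal 32, where 9.40% of all probes tested were. None of the 6 was over 2-fold higher in animal 25, 26 or 34, where 2.97%, 10.4% and 15.0% of all probes were. Over 2-fold lower on day 7 were OAS2 alone in animal 26, where 2.17% of all probes were, and OAS2, MX2 and RSAD2 in animal 34, where 25.5% of all probes were. These are single pairs of arrays, so they carry no replicate check.

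Of the 6 genes, 4 (EIF2AK2, OAS2, MX2 and RSAD2) were higher on day 7 in animal 32 and lower in each of the other 3, a pattern that 20.5% of all probes tested shared. For all 6 the change was largest in animal 32, as for 37.1% of the probes. Ranked by the change in animal 32 among 9448 probes, RSAD2 stood at 8, MX2 at 11, OAS2 at 26, MX1 at 56, EIF2AK2 at 74 and ISG15 at 91. Over 8-fold higher on day 7 were 52 probes in animal 32, against 3 in animal 25, 3 in animal 26 and 35 in animal 34. Over 8-fold lower were 376 probes in animal 34 and at most 5 in each of the others.

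By limma with the animal as a block, 0 of the 6 genes passed an adjusted p under 0.05 for day 7 against day 0 in neutrophils (adjusted p 0.644 to 0.981), and 0.00% of the 9448 probes tested did. At an unadjusted p under 0.05 there were 0 of the 6 genes and 1268 probes. The standard errors of the 6 genes ran from 0.52 to 1.39 against a median of 0.30 over all probes, and 93.2% of the probes had a smaller one than the lowest of the 6. The mean changes depended on animal 32 and, for OAS2, MX2 and RSAD2, also on animal 34. Without animal 32 the means over 3 animals were -0.17 for ISG15, -0.40 for EIF2AK2 and -0.22 for MX1. For OAS2, MX2 and RSAD2 they were -1.19, -2.38 and -1.44. Without animal 34 the means of OAS2, MX2 and RSAD2 were 0.59, 1.04 and 1.34.

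In liver the mean changes of the same genes over 3 animals lay between -0.35 and 0.10, and none passed the test. ISG15 was at 0.71, 0.59 and 0.26 on day 7 in animals 58, 61 and 66, against 1.65, 0.39 and -0.24 on day 0. The 3 animals spread over 0.45 on day 7 and 1.89 on day 0, with animal 58 lower and animals 61 and 66 higher on day 7. The mean change of ISG15 was -0.08 ± 0.30 (SE, n = 3; limma adjusted p = 0.92). MX1 was at 0.62, 1.11 and 0.72 on day 7 and 1.63, 1.29 and 0.57 on day 0, so that animal 58 again had the lowest change, -1.01, and animal 66 was slightly higher on day 7. Its mean change of -0.35 ± 0.24 (SE, n = 3; limma adjusted p = 0.549) was the one farthest from 0 among the 6.

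For the other 4 genes the picture in liver was alike. RSAD2 was at -2.92, -3.62 and -3.95 on day 7 in animals 58, 61 and 66, against -3.29, -3.22 and -4.27 on day 0. EIF2AK2 was at -4.09, -3.99 and -3.86 on day 7 and -3.77, -4.00 and -3.73 on day 0. The groups overlapped for both genes, and EIF2AK2 had the narrowest spread of the 6, with a 95% interval of its mean change from -0.44 to 0.15. MX2 was at -4.94, -4.34 and -5.41 on day 7 and -4.54, -4.69 and -5.24 on day 0. OAS2 was at -5.19, -5.92 and -6.57 on day 7 and -5.01, -6.08 and -5.98 on day 0. On day 7 the OAS2 spot was well above background on 1 of 3 arrays and the MX2 spot on 2 of 3, and on day 0 both were on all 3.

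By limma, 0 of the 6 genes passed in liver (adjusted p 0.549 to 0.92; mean changes between -0.35 and 0.10), where 3.99% of the 10930 probes tested did. MX1 in animal 58 was the one value of the 18 in liver that was over 2-fold lower on day 7, and none was over 2-fold higher. The day change was also compared between the tissues in 1 model over all arrays, and 0 of the 6 genes passed (adjusted p 0.641 to 0.971), where 1.17% of 8838 probes did. The neutrophil change minus the liver change was 0.91 ± 0.79 (SE) for MX1 and -0.48 ± 1.92 for MX2, the ends of the range over the 6 genes. The interval for MX2, -4.86 to 3.90, shows how little the 7 animals bound a difference of this kind.

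The level of the 6 genes was far higher in neutrophils than in liver on both days. On day 0 all 6 passed the test, where 43.4% of 11494 probes were called higher in neutrophils. Every neutrophil array lay above every liver array for all 6, as it did for 43.3% of the probes. The log2 difference was 6.64 ± 0.45 for ISG15, 3.27 ± 0.19 for EIF2AK2, 6.86 ± 0.55 for OAS2, 4.66 ± 0.35 for MX1, 6.50 ± 0.45 for MX2 and 5.15 ± 0.43 for RSAD2 (SE, 4 neutrophil and 3 liver arrays), with limma adjusted p between 8.73e-07 and 7.55e-06. OAS2 was thus 116-fold and MX2 90.8-fold higher in neutrophils, and EIF2AK2, the least different, 9.64-fold. After normexp correction of the raw intensities and quantile normalization, the day 0 differences were smaller, 4.57 for OAS2, 4.79 for MX2, 4.24 for RSAD2 and 2.52 for EIF2AK2, and all 6 genes still passed.

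On day 7 all 6 genes again passed, but OAS2 and MX2 entered the test only through the neutrophils, since their liver spots were not well above background on every array. The count is read for the other 4 alone, against 35.1% of 10205 probes called higher in neutrophils, and again no neutrophil array overlapped a liver array, as for 36.2% of the probes. The differences were 7.24 ± 0.68 for ISG15, 3.80 ± 0.67 for EIF2AK2, 7.11 ± 1.36 for OAS2, 5.57 ± 0.66 for MX1, 6.03 ± 1.58 for MX2 and 5.30 ± 1.48 for RSAD2 (SE, 4 neutrophil and 3 liver arrays). The values for OAS2 and MX2 rest in part on liver spots at background, and with normexp and quantile normalization they were 4.68 and 4.47. The limma adjusted p lay between 2.16e-05 for ISG15 and 0.0113 for RSAD2. The errors were larger than on day 0 for all 6 genes. The gap was narrowest for MX2, between -2.78 in the neutrophils of animal 34 and -4.34 in the liver of animal 61. Shares of probes this large in both directions, with 4567 probes lower in neutrophils on day 0, show how unlike the neutrophil and liver arrays are. Tissue and slide cannot be told apart in this, and a place among these probes singles out no gene.

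**Figure D3:**
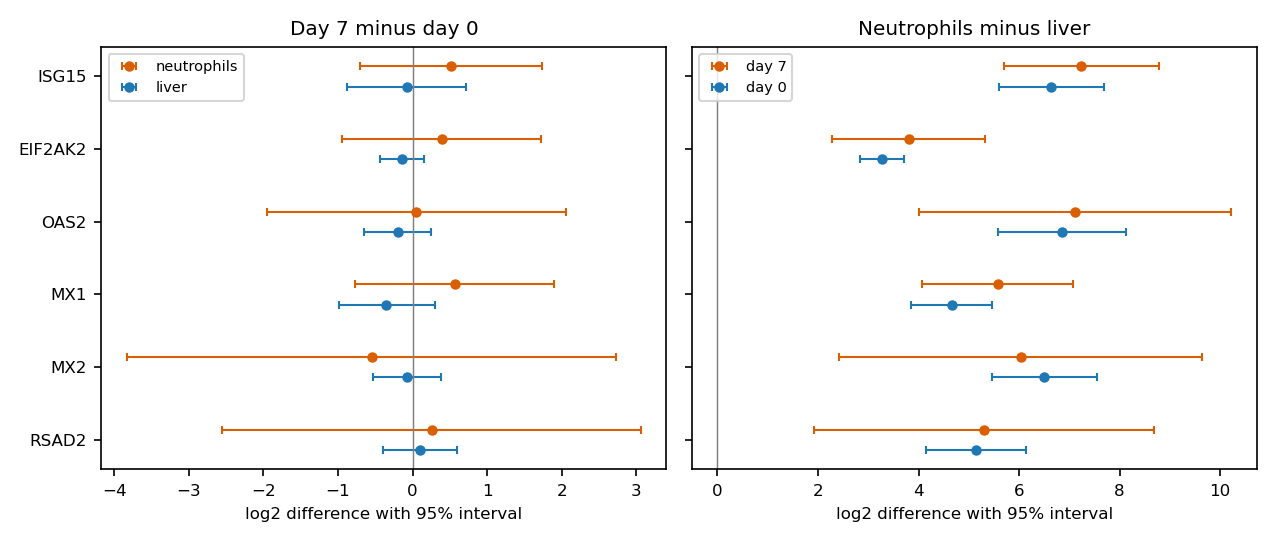
Fitted log2 differences of the 6 genes with their 95% intervals from limma. On the left is day 7 minus day 0 in neutrophils (orange) and liver (blue), where all 12 intervals include 0. On the right is neutrophils minus liver on day 7 (orange) and day 0 (blue), where all 12 intervals lie above 0.

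Most of the other interferon-stimulated effectors tested followed the same animal, though their list was chosen with earlier results of these data known. From a list of 64 further effector genes, 25 had a probe and 24 were tested in neutrophils. By limma 0 of 24 passed for day 7 against day 0, with a median mean change of 0.27 against -0.07 over all probes. In animal 32 their median change was 2.29, and 18 of 24 were over 2-fold higher on day 7. In animals 25, 26 and 34 the medians were -0.25, -0.31 and -0.46, and 1, 3 and 2 of them were over 2-fold higher. Over all probes these shares were 9.40% in animal 32 and 2.97%, 10.4% and 15.0% in animals 25, 26 and 34. For 21 of the 24 the change was largest in animal 32, against 37.1% of all probes.

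Single genes of the interferon lists are given as examples, picked with their values known. UBA7, the E1 enzyme that activates ISG15, had changes of -0.86, -0.32, 3.94 and -3.09 in animals 25, 26, 32 and 34. USP18, the protease that takes ISG15 off its targets and damps the receptor, had changes of -0.19, -0.66, 3.51 and 0.72. Both were highest in animal 32, but UBA7 was lower on day 7 in animal 34 while ISG15 was not.

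RIGI, which binds viral RNA with a triphosphate end, had changes of -0.01, -0.34, 2.84 and 0.03 in animals 25, 26, 32 and 34. DHX58, a helicase that tunes the same pathway, had changes of 0.16, -0.80, 3.65 and -0.28. IFIT3, which works in a complex on viral RNA, had changes of -0.53, -0.28, 2.05 and -1.93. In each case animal 32 was the only one over 2-fold higher.

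Further effectors with large changes in animal 32 were MOV10, an RNA helicase, at 3.88, SP110, a nuclear body protein, at 3.73, and TRIM21, a cytosolic antibody receptor and ubiquitin ligase, at 3.43. Some effectors did not follow animal 32. OASL, a relative of OAS2 without synthetase activity in humans, had changes of 3.32, 2.44, 0.46 and 1.64, so that animal 32 had the smallest change of the 4. It had the smallest p of the list, and its mean change of 1.97 ± 0.46 (SE, n = 4) had a limma adjusted p of 0.298. Its spot was not well above background on every day 0 array, so it entered the test through day 7 alone. Its mean level was -2.44 on day 7 and -4.40 on day 0, so the change rests in part on background. The OASL probe lay in spot row 6, near the edge of the array. SAMHD1, which depletes nucleotides, and STING1, the adaptor for cytosolic DNA, had changes of 0.07 and 0.11 in animal 32 and were largest in animal 26, at 1.86 and 1.29.

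Of 36 genes of interferon signalling, 26 had a probe and 21 were tested in neutrophils, and 0 passed by limma. Their medians were -0.34 in animal 25, -0.34 in animal 26, 0.96 in animal 32 and -1.25 in animal 34. Over 2-fold higher on day 7 in animal 32 were 9 of 21, against 9.40% of all probes, and over 2-fold lower in animal 34 were 13 of 21, against 25.5%. IRF9, the DNA-binding subunit of the factor that type I interferon activates, had changes of -0.29, -0.64, 1.34 and -0.95 in animals 25, 26, 32 and 34. IRF3, which switches on interferon genes after RNA sensing, had changes of -0.26, -0.02, 2.36 and -1.87.

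In animal 32 the change was 0.00 for IFNAR1 and 0.32 for IFNAR2, the subunits of the type I interferon receptor, and 0.62 for IFNGR1 and 0.63 for IFNGR2, those of the interferon gamma receptor. In animal 34 the lowest changes of the signalling list were those of MYD88, the adaptor of Toll-like receptors, at -5.08, IRF1, a transcription factor induced by interferon gamma, at -4.46 and IFNAR1 at -3.78. They came on the dimmest array of the study, on which 2400 of 9430 probes were over 2-fold lower, and the part of signal strength in them was not tested.

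**Figure D4:**
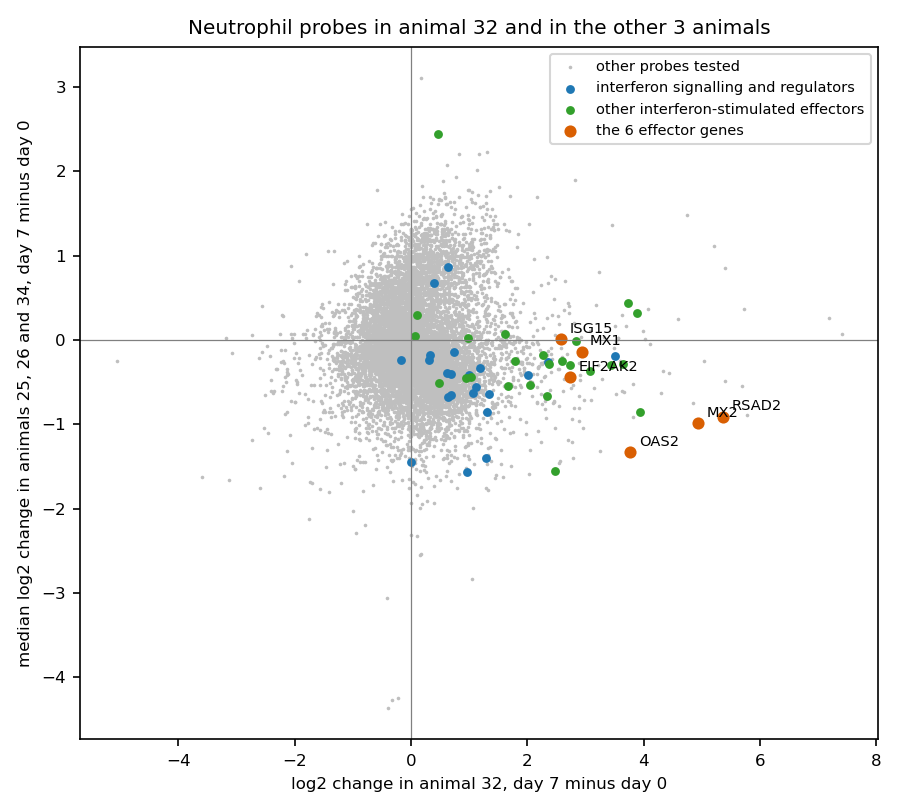
Each point is a probe tested in neutrophils, by its log2 change, day 7 minus day 0, in animal 32 (horizontal axis) and by the median of its changes in animals 25, 26 and 34 (vertical axis). The 6 effector genes (orange, named) and most of the other interferon-stimulated effectors (green) lie to the right of the cloud of probes, with medians near or below 0 in the other 3 animals.

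In liver, 21 of the other effectors and 19 of the signalling genes were tested, and 0 passed in either list. At an unadjusted p under 0.05 there were 4 and 6, beside 1954 of 10930 probes in all. USP18 had the smallest p of its list, with changes of 0.78, 0.69 and 0.52 in animals 58, 61 and 66 (mean 0.66 ± 0.11, SE, n = 3; limma adjusted p = 0.0515). SP110 was also higher in all 3 animals, at 0.43, 0.63 and 0.60 (adjusted p = 0.0728), and both probes lay in spot row 8. IFIT3 was lower in all 3, at -0.57, -0.72 and -0.14 (adjusted p = 0.205). IKBKE, a kinase upstream of IRF3, was lower in all 3, at -0.75, -0.59 and -1.28 (adjusted p = 0.0759).

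By level on day 0, 22 of 24 other effectors and 19 of 21 signalling genes were higher in neutrophils than in liver by limma, and 1 signalling gene, TICAM1, was lower. Over all probes 43.4% were called higher in neutrophils. IFIT3 differed by 9.82 (adjusted p = 2.12e-08), IFITM1, a membrane protein that blocks viral entry, by 8.14 (2.84e-08), and XAF1 by 6.47 (6.33e-08). On day 7, 16 of 22 and 14 of 20 passed as higher, against 35.1% of all probes, and none as lower. Well above background on every liver array were 21 other effectors and 19 signalling genes on day 0, and 19 and 14 on day 7. Some of the genes counted thus entered the test only through the neutrophils, so these counts are not read as a result on the lists.

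Changes in markers of blood cells are given beside these results for each animal. The median change of 10 T and NK cell markers was 0.68, 1.30, 0.53 and -0.01 in animals 25, 26, 32 and 34, and for 0 of 10 was the change largest in animal 32. The mean level per array of all 12 such markers with a probe, tested or not, ran from -2.03 to -0.94 on day 7 and from -2.27 to -1.51 on day 0. For 4 B and plasma cell markers the medians were 0.71, 1.56, 1.12 and 0.64, with mean levels from -0.73 to -0.56 on day 7 and from -2.22 to -1.01 on day 0. Both medians were above 0 in animals 25, 26 and 32, and in animal 34 that of the B and plasma cell markers alone was.

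For 5 monocyte and macrophage markers the medians were 0.11, 0.46, 0.11 and -0.70 in animals 25, 26, 32 and 34. In animal 32 CD14 was at 1.57, C1QA at 0.12, C1QB at 0.11, C1QC at -0.0 and CD68 at -0.20. Of the listed plasmacytoid and dendritic cell markers, 2 were tested, CCR7 and TCF4, and their medians were 0.33, 0.79, 0.77 and -2.05. Whether these 2 genes read those cells here was not tested. Of the 3 such markers with a probe, 0 were well above background on every day 7 array. The mean levels of these 3 ran from -4.95 to -3.95 on day 7 and from -4.66 to -4.14 on day 0. For 13 neutrophil markers the medians were -0.48, -0.38, 0.58 and 0.15, with mean levels from 2.35 to 3.36 on day 7 and from 2.92 to 3.07 on day 0. For 9 of the 13 the change was largest in animal 32, as for 37.1% of all probes. Over 2-fold higher there were 2, FCGR3A, an Fc receptor, at 2.69 and NCF1, an oxidase subunit, at 1.11. Over 2-fold lower there was 1, MPO, at -2.46, and ITGAM and MMP9 were lower at -0.73 and -0.20. For 3 platelet and erythroid markers the medians were -0.56, -0.53, 0.82 and -0.85, and for all 3 the change was largest in animal 32. The 1 eosinophil marker tested, CCR3, had changes of -1.05, -1.72, -2.52 and -0.93, the lowest in animal 32. The part of cell makeup in the animal 32 values was not tested.

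Among the named probes whose pattern over the 8 neutrophil arrays was most like the mean of the 6 genes were TRIM6 (Pearson r = 0.99) and TRIM21, RNF114 and RBCK1 (0.98 each). The arrays share animals in pairs, and 1 array carries much of the pattern, so these values are a description. Without the day 7 array of animal 32, over 7 arrays, r was 0.92 for TRIM6, 0.95 for TRIM21, 0.86 for RNF114 and 0.85 for RBCK1. Of the 20 most alike probes, 2 were on the interferon lists, TRIM21 among them. Those lists held 24 and 21 genes tested in neutrophils, where 9448 probes, named or not, were tested.

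Among the 6 genes themselves, r of each with the mean of the other 5 over the 8 arrays was 0.97 for RSAD2, 0.96 for EIF2AK2, 0.89 for OAS2, 0.85 for MX1, 0.81 for ISG15 and 0.72 for MX2. Without the day 7 array of animal 32 these were 0.85 for RSAD2, 0.79 for EIF2AK2, 0.54 for OAS2, 0.28 for MX1, 0.28 for ISG15 and 0.25 for MX2. In liver, over 6 arrays, the most alike named probes were KPTN (0.99), PDCD7, RDH16 and MOSPD3 (0.98 each) and OVCA2 (0.97). Of the 20 most alike there, 1, RIGI, was on the interferon lists. Those lists held 21 and 19 genes tested in liver, where 10930 probes, named or not, were tested. EIF2AK2 had r = -0.25 with the mean of the other 5 in liver.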

How the data were processed

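Neutrophil and liver RNA of 14 samples was measured on 1-colour (Cy3) custom bovine arrays. The spot intensities are processed signals that the authors deposited from Agilent Feature Extraction (9.5.1.1 per the file headers, 9.5 per the submitters' processing notes), background-subtracted per the file headers. In 1 alternative the deposited raw spot means and background medians were used, intensities that are uncorrected per the file headers. The spot flags and row positions that were used are other columns written by that program, per the file headers. The authors' deposited log2 values equal log2 of these signals minus a constant that lies -0.013 to -0.004 from the array's 75th percentile (correlation 1.0; column medians -3.55 to -2.69), which settles their scale, centring and direction. No genome build is named in the labels or headers, so none is stated and coordinates were left out.

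For each probe, the array's 75th percentile was taken off the log2 processed signal, without control and outlier spots. Of 15011 probes, 6954 had 1 symbol and 8057 none, using the files' names, accessions and gene numbers and NCBI RefSeq's gene table for ARS-UCD2.0 for current symbols. ISG15 and MX2 matched by name, OAS2 in another letter case, MX1 as one of several names of its spot, RSAD2 by the bracketed symbol in its description, and EIF2AK2 through its accession (the file calls it PRKR). A probe was tested if any 1 of the groups compared had it well above background throughout, by limma 3.58.1 in R 4.3.3 (lmFit, eBayes), the animal as a block for day 7 against day 0, two-sided, with Benjamini-Hochberg adjustment over all probes tested. For the difference of the day change, a probe had to meet that background rule in both tissues. The fits were checked on simulated data.

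The animal numbers in the labels pair the 2 days. Paired deviations from the group means correlated by 0.66, 0.36 and 0.68 in liver animals 58, 61 and 66 and by 0.63, 0.36, -0.02 and 0.25 in neutrophil animals 25, 26, 32 and 34. The number of arrays limits the precision.

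The 10 genes and all lists were chosen with earlier results of these data known. The rule for naming took in all members, interferon genes that passed any comparison, otherwise the 4 with the smallest p per list and tissue, and the 5 named probes most alike. Of the many interferon genes that it takes in, the text gives some as examples, picked with their values known. A gene and a probe sequence are not reported here. Alternatives were no block, other background correction and normalization, the authors' values, other filters, removal of a spot row trend, middle spot rows alone, array weights, and leaving out each animal.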

Additional observations from a re-analysis of the deposited data

Results flagged for a closer look

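Among 18 groups of 4 neutrophil values (the levels on each day and the changes of the 6 genes), 6 held a value set apart from the other 3 by Dixon's criterion at its 95% level, which chance meets in about 1 in 20 groups. The genes share their arrays, so these are not 6 separate observations.

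In animal 32 the day 7 level was set apart for RSAD2, at 6.49, and for EIF2AK2, at 1.88. The day 7 minus day 0 change of animal 32 was set apart for OAS2, at 3.77, for MX1, at 2.93, and for EIF2AK2, at 2.74. The day 0 level of ISG15 was set apart in animal 34, at 7.98, against 6.95 to 7.08 in the other animals. For MX2 animal 34 lay far on the other side of the group from animal 32, and no value was set apart.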

How the results depend on the processing

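The count of the 6 genes that passed was 0 for both day changes and for their difference under every alternative that was run, including no replicate block. It was 6 for both level comparisons under the alternatives run for them, except 4 on day 7 where a probe had to be well above background on every array, which leaves OAS2 and MX2 untested. Counts over all probes moved more. For liver, 436 probes passed, against 212 with no replicate block, 0 with no filter on dim probes, 30 with the spot row trend removed, 0 in the middle spot rows alone and 0 to 164 with an animal left out (0 without animal 58). For neutrophils, 0 passed, against 4304 with array weights, which were highest for animal 25 and under 1 for animals 32 and 34. For the difference of the day change, 103 passed, against 66 with no filter, 10 with the row trend removed, 0 in the middle rows, 2976 with array weights and 15 to 266 with an animal left out (229 without animal 32, 266 without animal 34). For the level on day 7, 7045 passed, against 4651 where a probe had to be well above background on every array. The causes were not tested.

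All values that changed sign belonged to differences that had not passed. In neutrophils, OAS2 was -0.02 with normexp and quantile normalization, -0.07 with quantile normalization and -0.06 with the row trend removed. With array weights EIF2AK2 was -0.12, MX1 -0.09, OAS2 -0.65 and RSAD2 -0.71, and in the difference between tissues OAS2 was -0.40 and RSAD2 -0.88. With an animal left out, the neutrophil changes ran from -0.17 to 0.90 for ISG15, -0.40 to 0.72 for EIF2AK2, -1.19 to 0.59 for OAS2, -0.22 to 0.93 for MX1, -2.38 to 1.04 for MX2 and -1.44 to 1.34 for RSAD2. In liver they ran from -0.37 to 0.35 for ISG15, -0.29 to 0.09 for MX2 and -0.04 to 0.35 for RSAD2. In the difference between tissues they ran from -0.25 to 0.86 for EIF2AK2, -0.09 to 0.98 for ISG15, -0.99 to 0.79 for OAS2, -2.31 to 1.11 for MX2 and -1.54 to 1.24 for RSAD2. The median change of the 6 genes in animal 32 was 2.91 to 3.35 under 4 scalings chosen after seeing the data. Taking the mean over a gene's probes changed nothing for the 6, which have 1 probe each, and the middle rows leave out ISG15 and MX2. Signal over background limits OAS2 and MX2 in liver most.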

Other observations

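The named genes with the largest change in animal 32 were looked up after their values were seen. ADM, the vasodilator peptide adrenomedullin, had changes of 0.07, 0.38, 7.40 and -1.47 in animals 25, 26, 32 and 34, and was 169-fold higher on day 7 in animal 32. CXCL10, a chemokine induced by interferon gamma and type I interferons, had changes of 0.05, 0.26, 7.18 and 0.57, a 145-fold difference in animal 32. The guanylate-binding proteins GBP5 and GBP4, interferon-inducible GTPases, were 51.6-fold and 42.0-fold higher there, although the file describes the GBP5 probe only as similar to human GBP2, so which relative it reads is uncertain. TNFSF13B, the B cell survival factor BAFF, had changes of 0.25, 0.91, 4.59 and 0.10, and PML, the organiser of nuclear bodies, had changes of 0.11, -0.54, 4.10 and -0.05. Of the 20 named genes with the largest change in animal 32, 3 were among the 6 effector genes of the report (RSAD2, MX2 and OAS2). Another 4 were on the list of other effectors (UBA7, MOV10, SP110 and DHX58), a list with 24 genes tested in neutrophils. In all, 9448 probes, named or not, were tested there. The 20 were ranked by the same animal 32 values, so these counts are a description. COX7A1, ID1 and GPHN, at 4.33, 4.07 and 4.02, were among the 20 as well and are not on the interferon lists. These values come from 1 pair of arrays, with no replicate.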
